A study of Mus musculus and Homo sapiens with 41 samples.

Results

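The gelsolin family of actin regulators was followed in the RNA-seq of myeloid progenitors with a loss or a gain of PLZF, the zinc finger transcription factor encoded by Zbtb16. Its 7 members, Gsn, Capg, Flii, Svil, Scin, Vil1 and Avil, were taken by gene symbol from both tables and are 7 of the 53756 genes of the GMP table and 7 of the 13238 genes of the 416b table. The family was chosen on the GMP values of Gsn, which were known when it was proposed, so the values of its members are given as a description and support nothing by themselves. Granulocyte-monocyte progenitors (GMPs, bone marrow cells sorted for c-Kit, Cd34, FcγR and Cd45 and for the lack of Sca-1 and lineage markers) were either wild type (WT) or homozygous for luxoid (Zbtb16lu/lu), a loss-of-function allele of Zbtb16. Both genotypes are on C57BL/6, and in both the GMPs came from lethally irradiated C57BL/6 Cd45-1 hosts that had been reconstituted with total bone marrow of Cd45-2 donors, so that all of them are regenerated cells. The GMP table has 2 libraries for each genotype, and nothing in the sources used here ties each library to an animal or gives the age of the animals. 416b is a mouse Cd34+ myeloid cell line, transduced with a lentivirus for PLZF-Flag or with the Empty vector and sorted for GFP, with 1 library for each condition.

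Gelsolin family proteins are built from repeats of the gelsolin domain, by which they bind actin, for many of them under the control of calcium and phosphoinositides. Gelsolin (Gsn) and adseverin (Scin) sever actin filaments and then cap the fast-growing barbed end, whereas CapG (Capg), abundant in macrophages, caps without severing. Villin (Vil1, known from the intestinal brush border), advillin (Avil, known from sensory neurons) and supervillin (Svil, a large membrane-associated protein) also carry a headpiece. Those of villin and advillin bind actin filaments. Flightless I (Flii) joins gelsolin repeats to leucine-rich repeats. In leukocytes these proteins take part in cell shape, migration and phagocytosis.

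The count of a gene pools all of its transcripts, and Gsn, known to give a secreted and a cytoplasmic form from different starts, has 3 RefSeq transcription starts. The bases just before each Gsn start are therefore printed, together with those of Flii, the member with the highest level per kilobase in GMPs (sequences from RefSeq, GRCm38.p6, the same build as mm10). Each is written 5′ to 3′ on the strand of the gene and ends at the base before the transcription start. Gsn spans chr2:35256380-35307892 on the plus strand (GENCODE M21), where Gm43128 overlaps it by 1621 bases on the same strand, and Flii spans chr11:60714123-60727263 on the minus strand. Capitals mark matches, on either strand, to GGAAGT (the core of ETS family sites, including those of PU.1) and TGTGGT (the core of RUNX sites).
Gsn, chr2:35256109-35256358: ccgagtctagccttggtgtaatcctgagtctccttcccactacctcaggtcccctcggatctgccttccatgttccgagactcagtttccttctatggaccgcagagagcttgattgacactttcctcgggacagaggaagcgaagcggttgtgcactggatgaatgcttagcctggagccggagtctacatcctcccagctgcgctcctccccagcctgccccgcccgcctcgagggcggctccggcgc
Gsn, chr2:35266494-35266743: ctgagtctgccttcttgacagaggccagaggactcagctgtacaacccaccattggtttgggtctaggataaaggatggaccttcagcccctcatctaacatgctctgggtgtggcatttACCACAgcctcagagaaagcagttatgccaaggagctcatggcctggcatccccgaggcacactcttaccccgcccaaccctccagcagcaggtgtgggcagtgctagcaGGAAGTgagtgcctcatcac
Gsn, chr2:35282130-35282379: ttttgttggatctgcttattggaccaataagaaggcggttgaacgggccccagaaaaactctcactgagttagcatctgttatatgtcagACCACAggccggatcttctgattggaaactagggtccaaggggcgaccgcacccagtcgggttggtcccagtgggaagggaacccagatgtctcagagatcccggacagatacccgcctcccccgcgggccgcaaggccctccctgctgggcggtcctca
Flii, chr11:60727264-60727513: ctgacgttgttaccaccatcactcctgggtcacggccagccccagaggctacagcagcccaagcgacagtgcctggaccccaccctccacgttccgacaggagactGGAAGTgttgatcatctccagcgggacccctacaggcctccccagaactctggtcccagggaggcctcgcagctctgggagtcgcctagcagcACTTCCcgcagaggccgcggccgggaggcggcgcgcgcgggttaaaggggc
The window of the upstream Gsn start has no match to either motif. The middle one has GGAAGT 20 bases before the start and TGTGGT on the opposite strand 130 bases before it, and the downstream one has TGTGGT on the opposite strand 160 bases before the start. The Flii window has GGAAGT 144 bases before the start and again, on the opposite strand, 51 bases before it. Among 32851 RefSeq promoters of mouse genes, windows of 300 bases that run past the start, 23.8% hold GGAAGT and 16.8% hold TGTGGT, so these matches are ordinary. A match is a description of the letters and not a binding site. The 4 windows held no match to AGATAA, the site bound by erythroid and megakaryocytic zinc finger factors, which 11.2% of promoters hold. They held none to the CArG box either, the serum response element of many actin genes, found in 1.63% of promoters. Among the members not printed, the window of Vil1 held a CArG box and that of Avil held AGATAA.

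In GMPs, the gene with the widest separation between genotypes in the family was Gsn, at nearly double the level in Zbtb16lu/lu, followed by a smaller separation of Capg in the same direction. Flii and Svil had almost the same level in both genotypes. Scin, Vil1 and Avil varied more between libraries of 1 genotype than between genotypes, or were close to the limit of detection. None of the 7 members passed the test across all genes (limma on log2 values, adjusted p under 0.08), in which 0% of the 20531 genes tested were called. Zbtb16 itself was not called in this fit (limma adjusted p = 0.299). The study reported genes past the same threshold, in both directions, for this contrast by its own test. The absence of calls here thus does not show that no gene differs.

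Normalized counts of Gsn were 599 and 701 in the WT libraries and 1406 and 1131 in the Zbtb16lu/lu libraries. The lowest Zbtb16lu/lu library was thus well above the highest WT library. The means were 649.9 ± 72.5 in WT against 1268.5 ± 194.6 in Zbtb16lu/lu (SD, n = 2 libraries each), a ratio of 1.95. On the log2 scale with a pseudocount of 1, the difference was 0.96 with a standard error of 0.17 (limma adjusted p = 0.299). The gap was much alike for the pair of libraries that share a date in their column names, WT library 1 and Zbtb16lu/lu library 2 (0.92), and for the other pair (1.00). Leaving out 1 library at a time moved it between 0.80 and 1.12.

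Capg was at 1363 and 1689 in WT against 2085 and 1872 in Zbtb16lu/lu. Here too the genotypes did not overlap, but the gap between the nearest libraries was smaller than the spread within WT. The means were 1526 ± 230.1 and 1978 ± 150.2 (SD, n = 2). On the log2 scale the difference was 0.38 with a standard error of 0.15 (limma adjusted p = 0.47). It was 0.46 for the pair of the shared date and 0.30 for the other pair. It fell to 0.23 without WT library 1, and likewise with offsets for GC content and length (limma adjusted p = 0.711).

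Gsn and Capg were the only members with an unadjusted limma p under 0.05 in the direction of higher values in Zbtb16lu/lu, and no member had one in the other direction. Over all genes tested, 5.5% were higher and 4.37% lower at that threshold. Libraries of the genotypes did not overlap for 2 members that were higher in Zbtb16lu/lu, against 21.7% of all genes, and for 1 that was lower, Vil1, against 22.1% of all genes. A log2 difference of at least 0.58 (1.5-fold) together with libraries that did not overlap was found for Gsn alone, against 7.01% of all genes for higher values and 2.95% for lower values. These shares say how common such gaps are with 2 libraries for each genotype, and nothing is read from the members' counts, since Gsn was known when the family was chosen.

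**Figure D1:**
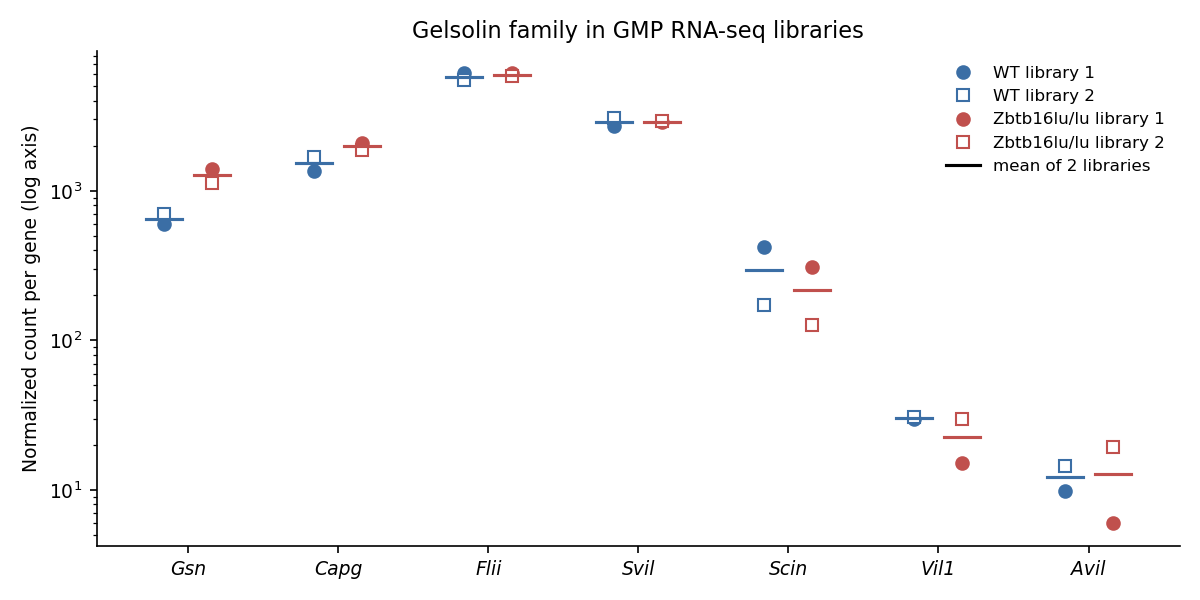
Normalized counts (log axis) of the 7 gelsolin family genes in the 4 GMP libraries, blue for WT and red for Zbtb16lu/lu, filled circles for library 1, open squares for library 2 and lines for the mean of 2 libraries. Gsn is separated by genotype (599 and 701 against 1406 and 1131), whereas library 1 is above library 2 in both genotypes for Scin.

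Flii, which also acts as a co-regulator of nuclear receptors, had the highest level per kilobase of the family in GMPs. Its normalized counts were 6104 and 5469 in WT against 6100 and 5833 in Zbtb16lu/lu, so that the genotypes overlapped. Its log2 difference was 0.05 with a standard error of 0.11 (limma adjusted p = 0.91). Svil was at 2713 and 3076 in WT and between them, at 2896 and 2908, in Zbtb16lu/lu, with a log2 difference of 0.01 and a standard error of 0.12 (limma adjusted p = 0.987). The sign of both differences depended on the libraries and on the offsets for GC content and length, so no direction is given for Flii or Svil.

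Scin was the member with the widest spread among libraries. It was at 422 and 172 in WT against 307 and 127 in Zbtb16lu/lu, so library 1 was higher than library 2 in each genotype and the genotypes overlapped. The range within a genotype was 1.29 in WT against 1.27 in Zbtb16lu/lu on the log2 scale, wider than the difference between genotypes of -0.45 (standard error 0.48, limma adjusted p = 0.761). Its residual SD was 0.907, against a median of 0.188 over the genes tested. The pair of the shared date gave -1.73 and the other pair 0.84, so the sign turned with the pair. Among the marker sums, that of the neutrophil list was also higher in library 1 of each genotype (14409 and 6598 in WT, 21666 and 10879 in Zbtb16lu/lu), as was that of the dendritic cell list (1761 and 1554 in WT, 2805 and 1901 in Zbtb16lu/lu) and, by a small margin, that of the GMP list (748940 and 739065 in WT, 857829 and 848332 in Zbtb16lu/lu). The part of such cells in the level of Scin was not tested.

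Vil1 and Avil were barely detected. Vil1 was at 29.8 and 30.9 in WT against 15.1 and 29.8 in Zbtb16lu/lu, so only 1 library was low and the absence of overlap rested on a gap of less than 1 count. The Avil values were 9.9 and 14.5 in WT against 6.0 and 19.5 in Zbtb16lu/lu, with the WT libraries inside the range of the Zbtb16lu/lu libraries. The Avil locus shares 9423 bases with Tsfm on the opposite strand, and the strand setting of the counting is not given in the sources used here, so Avil counts are uncertain. The log2 differences were -0.49 for Vil1 (standard error 0.51) and -0.12 for Avil (standard error 0.74), neither larger than its standard error. Adjusted p-values from limma were 0.753 and 0.966.

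Another gene with gelsolin repeats, the villin-like gene Vill, lies outside the family as chosen and was in the list of other actin regulators. It was at 819 and 697 in WT against 1142 and 1716 in Zbtb16lu/lu, so the genotypes did not overlap. The log2 difference was 0.89 with a standard error of 0.20 (limma adjusted p = 0.326), 1.07 for the pair of the shared date and 0.71 for the other pair.

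Levels of different members were compared per kilobase of exons, within a table. In WT GMPs the order was Flii (1148 ± 89.0 normalized counts per kilobase, SD, n = 2), Capg (603 ± 91.0), Svil (270.5 ± 24.0), Gsn (205.9 ± 23.0), Scin (98.9 ± 58.9), Vil1 (8.55 ± 0.21) and Avil (3.59 ± 0.94). The ranges of the 2 WT libraries did not overlap between any neighbours in this order. In Zbtb16lu/lu GMPs Gsn stood above Svil, at 401.8 ± 61.6 per kilobase against 271.2 ± 0.80. Vil1 and Avil then overlapped, with 4.24 and 8.40 per kilobase for Vil1 and 1.77 and 5.75 for Avil. As a share of the family's summed level per kilobase, Gsn made up 8.09% and 9.52% in the WT libraries and 15.6% and 13.9% in the Zbtb16lu/lu libraries. The share of Capg was 23.0% and 28.6% in WT against 28.8% and 28.7% in Zbtb16lu/lu, and that of Flii was 51.7% and 46.5% in WT against 42.3% and 44.8% in Zbtb16lu/lu. The summed normalized counts of the 7 genes were 11239 and 11152 in WT against 12815 and 11921 in Zbtb16lu/lu.

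In the 416b table Capg led, at 4489 per kilobase with Empty vector and 5202 with PLZF-Flag. Gsn followed at 1258 and 1053, Flii was at 1076 and 1166, and Svil at 551.9 and 584.6, so that Gsn and Flii changed places between the libraries. Avil was at 27.6 and 23.3, Scin at 3.23 and 0.551 and Vil1 at 1.88 and 0.465 per kilobase. Capg thus made up 60.6% and 64.8% of the family's level in the line, and Flii 14.5% in both libraries. The tables were normalized separately and the kits differed, so levels and orders are given for each table on its own and no difference between the tables is drawn. The order was the same in each group when the length of the longest transcript was used.

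**Figure D2:**
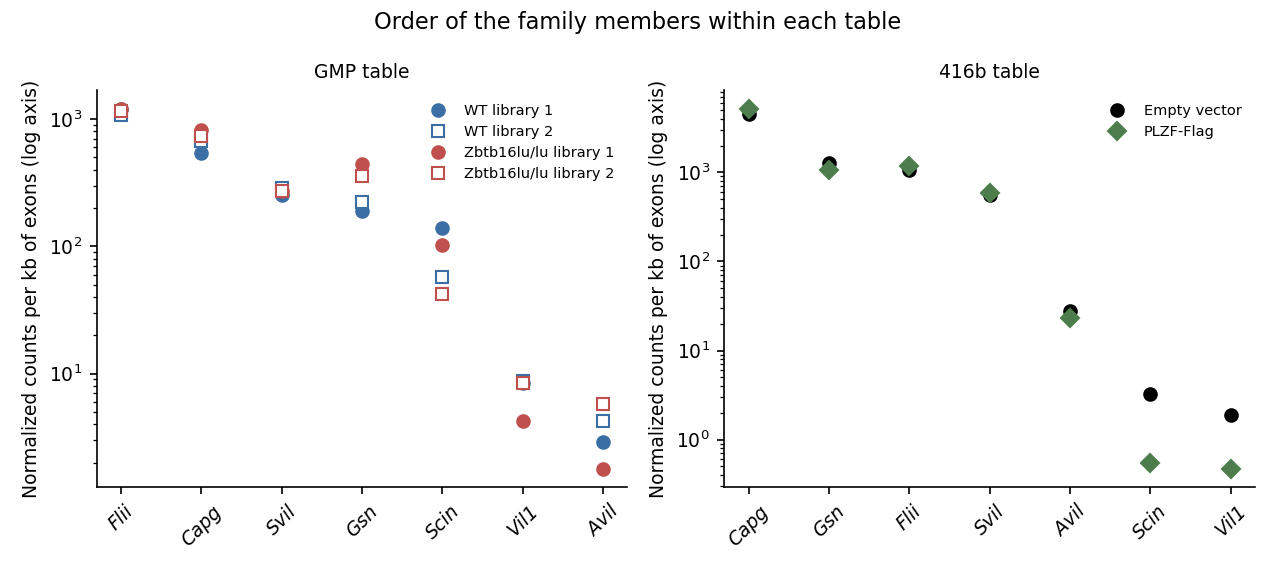
Normalized counts per kilobase of exons (log axis) of the 7 genes, ordered by level in WT GMPs (left, 4 libraries) and in Empty vector 416b cells (right, 2 libraries). The highest levels are those of Flii in the left panel (1148 in WT) and of Capg in the right panel (4489 with Empty vector), and Gsn passes Svil in the Zbtb16lu/lu libraries.

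In 416b cells with a gain of PLZF, the 4 members with many reads (Gsn, Capg, Flii and Svil) had ratios near 1, and those of Scin and Vil1 were not resolved. Each condition is 1 library with no replicate, so no test was made, and the intervals cover counting error only. Of the 11836 genes with a mean of 10 or more, 0.896% were at least 1.5-fold higher and 1.76% at least 1.5-fold lower with PLZF-Flag with a 95% interval that leaves out 0. No member was among them. Of the 5 members with such a mean, the interval was above 0 for 3 (Capg, Flii and Svil), against 16.1% of all genes, and below 0 for 1 (Gsn), against 15.9% of all genes.

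Gsn had 6560 reads with Empty vector and 2011 with PLZF-Flag, at a depth 2.73 times lower with PLZF-Flag, which gave normalized counts of 3970 and 3323. With Empty vector as the reference, the log2 ratio of normalized counts (pseudocount of 1, as for every log2 ratio given for 416b cells) was -0.26 (95% interval -0.33 to -0.18, from the reads without a pseudocount, as for all the intervals). It was thus lower with a gain of PLZF and higher with its loss in GMPs, but the comparisons differ in cells, kit and replication and the opposite signs were not tested. Capg did not show that pattern, since its log2 ratio was 0.21 (0.17 to 0.25), with normalized counts of 11353 and 13157. Flii had 8961 and 3557 reads and a log2 ratio of 0.12 (0.06 to 0.17), and Svil had 9758 and 3786 reads and a log2 ratio of 0.08 (0.03 to 0.14).

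Avil, at 155 reads with Empty vector and 48 with PLZF-Flag, had a log2 ratio of -0.24 (-0.74 to 0.23). Scin had 16 reads and 1 read, a ratio without a pseudocount of 0.171 (0.0041 to 1.10). For Vil1 the reads were 11 and 1, a ratio, again without a pseudocount, of 0.248 (0.0058 to 1.71). These 3 intervals include a ratio of 1. Those of Scin and Vil1 also take in much lower levels with PLZF-Flag, so a large difference in that direction is neither shown nor left out at this depth. Vill, whose values were not whole reads and were rounded to 62 and 18 reads, had a log2 ratio of -0.28 (-1.18 to 0.44).

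**Figure D3:**
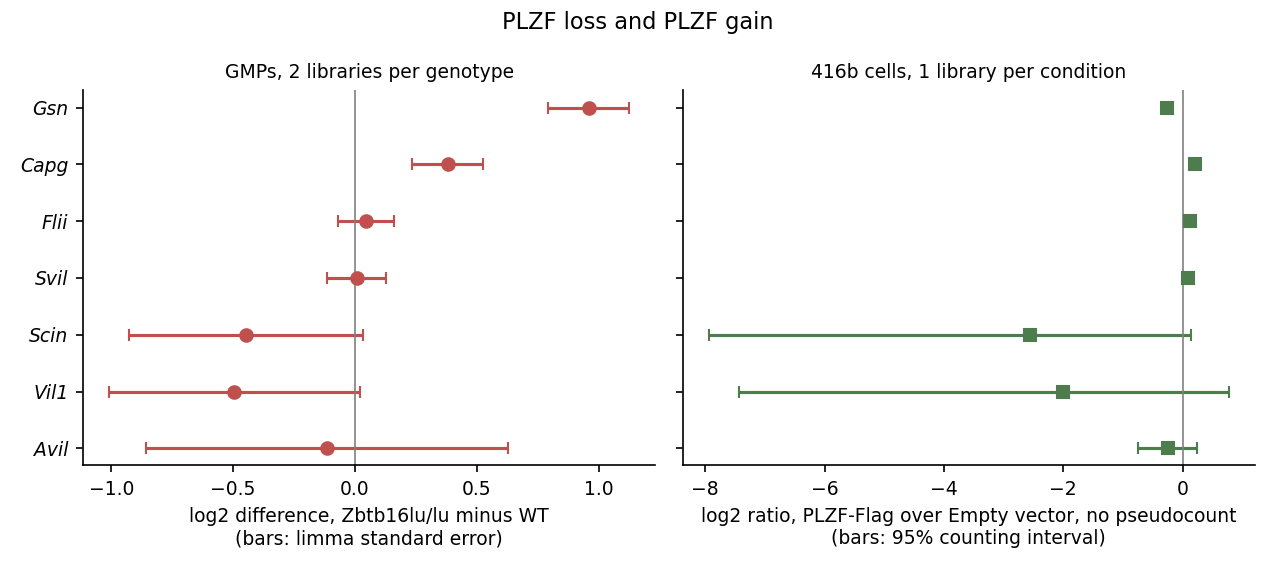
Log2 differences of the 7 genes. Left, Zbtb16lu/lu minus WT GMPs with the limma standard error (2 libraries per genotype). Right, PLZF-Flag over Empty vector in 416b cells, without a pseudocount and with the 95% counting interval (1 library per condition). Gsn is at 0.96 on the left and -0.26 on the right, and the intervals of Scin and Vil1 in 416b cells are wide, with 1 read in the PLZF-Flag library.

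Zbtb16 itself was at 705.0 and 829 in WT GMPs and at 269 and 369 in Zbtb16lu/lu GMPs (log2 difference -1.28, standard error 0.20, limma adjusted p = 0.299), and had 632 and 1538 reads in Empty vector and PLZF-Flag 416b cells (log2 ratio 2.73, 2.60 to 2.87). The GMP libraries held 38562940 to 40130730 normalized counts, and the 416b libraries 54529689 reads (Empty vector) and 19995819 reads (PLZF-Flag). GMP markers were abundant in all 4 GMP libraries, with Mpo (myeloperoxidase) between 477326 and 552003. In 416b cells with Empty vector, the GMP markers Cd34, Kit, Fcgr3, Cebpa and Ctsg had 18275, 10632, 5135, 4417 and 3830 reads. Fcgr2b, Prtn3 and Csf3r had 846, 776 and 331, and Mpo had few (20, and 2 with PLZF-Flag). Elane is not among the genes listed for 416b cells. Itga2b, the platelet integrin subunit, had 37089 reads with Empty vector. WT library 2 stood apart by its megakaryocyte and platelet markers, which summed to 7871 normalized counts against 2471 to 4228 in the other libraries. Without it the log2 difference was 1.07 for Gsn, 0.53 for Capg and -1.09 for Scin. The 9 megakaryocyte and platelet markers had a median log2 difference of -0.82, which was -0.18 for the pair of the shared date, without WT library 2, and -1.40 for the other pair. None of them was separated by genotype.

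Markers of maturing myeloid cells are given beside Gsn and Capg. The methods state that bone marrow was depleted of cells bearing Cd11b, Gr-1, 7-4 and other lineage markers before the GMP sort. None of the markers was called by limma at an adjusted p under 0.08. Of 12 markers of mature neutrophils, 12 had a higher mean in Zbtb16lu/lu, against 49.1% of all genes tested, and 8 did not overlap, against 21.7% of all genes, with a median log2 difference of 1.82. This median was 0.65 for the pair of the shared date and 2.33 for the other pair. Ly6g, a surface marker of neutrophils, was low, at 3.0 and 4.8 in WT against 21.1 and 19.5 in Zbtb16lu/lu. Among secondary granule genes, Ltf (lactoferrin) was at 56.7 and 11.6 in WT against 846 and 305.3 in Zbtb16lu/lu, and Camp (cathelicidin) at 361 and 68.5 in WT against 1435 and 478 in Zbtb16lu/lu. Summed over the list, normalized counts ranged from 6598 to 14409 in WT and from 10879 to 21666 in Zbtb16lu/lu, and so overlapped. S100a8 and S100a9, which overlapped between genotypes, make up most of this sum (8098 and 4284 of 14409 in WT library 1). Of 10 markers of monocytes and macrophages, 9 had a higher mean in Zbtb16lu/lu and 8 did not overlap (the same shares of all genes apply), with a median of 0.39, close to the difference of Capg and below that of Gsn. Their sums were 51858 and 63111 in WT against 76379 and 70724 in Zbtb16lu/lu, without overlap, and the median was 0.56 for the pair of the shared date and 0.21 for the other pair. Of the 10 GMP markers, 9 had a higher mean, with a median of 0.11. No marker of these lists was at 0 in all 4 libraries. The part of such cells in the levels of Gsn and Capg was not tested, and in bulk RNA fewer cells of a type and less RNA in each cell cannot be told apart. The medians of the other lists were 0.50 for dendritic cells, -0.28 for mast cells and basophils, 0.07 for erythroid cells, 0.17 for stromal and endothelial cells (4 of 9 genes tested) and 0.18 for B and T cells (3 of 8 genes tested). The sign turned with the pair for the dendritic (-0.32 for the shared date and 1.32 for the other pair), erythroid (0.66 and -0.42) and stromal and endothelial (0.51 and -0.47) lists.

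**Figure D4:**
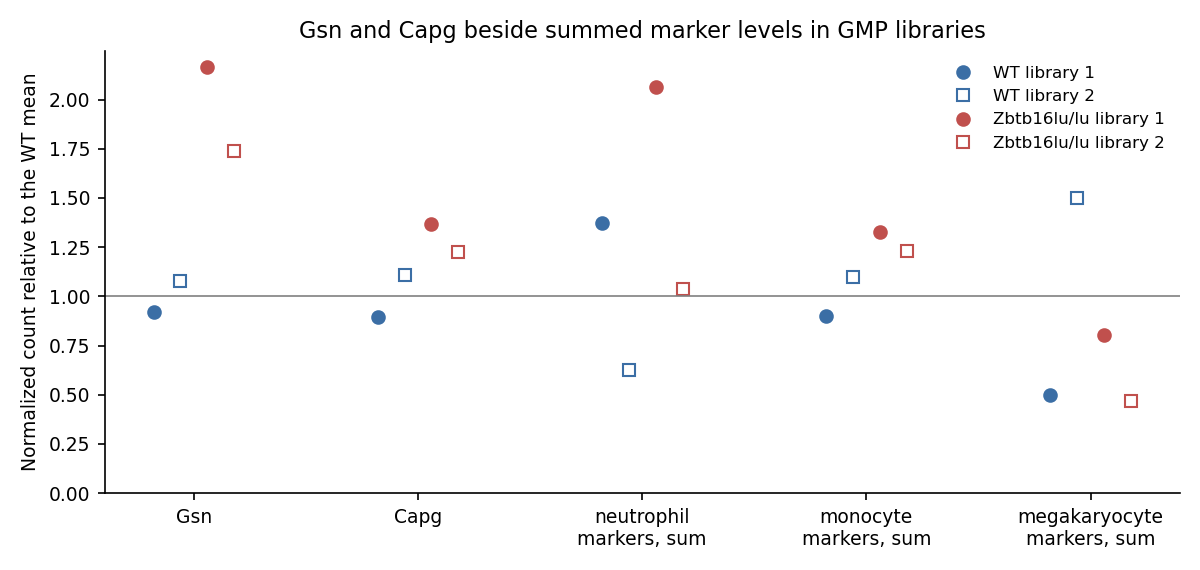
Gsn, Capg and the summed normalized counts of neutrophil, monocyte and megakaryocyte markers in each GMP library, relative to the mean of the 2 WT libraries (blue, WT; red, Zbtb16lu/lu; filled circles, library 1; open squares, library 2). Gsn reaches 2.16 and 1.74 and the monocyte sum 1.33 and 1.23 in Zbtb16lu/lu, whereas the neutrophil sum, most of it from S100a8 and S100a9, overlaps between genotypes and the megakaryocyte sum is highest in WT library 2.

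The genes with a pattern most like that of Gsn were found by the root mean square difference of log2 values, centred on each gene, over the 4 GMP libraries. The 5 nearest were Mlf1 (root mean square difference 0.0391), 9230116N13Rik (0.0403), Tlr8, an endosomal RNA sensor (0.0406), P2rx7, an ATP-gated cation channel of leukocytes (0.0531), and Lyz1, a lysozyme (0.0575). P2rx7 was at 239.6 and 293 in WT against 531 and 446 in Zbtb16lu/lu, and Lyz1 at 172 and 197 in WT against 368 and 299 in Zbtb16lu/lu. Mlf1, at 7.0 to 17.1 normalized counts, was too low for its likeness to weigh much. In 416b cells, Lyz1 had 89 and 9 reads (log2 ratio -1.79, -3.03 to -0.87) and Mlf1 631 and 190 reads (-0.28, -0.52 to -0.05), while the intervals of 9230116N13Rik and P2rx7 included 0. The 3 nearest to Capg were Txndc16 (0.00936), Smim5 (0.0117) and Ly86, which encodes MD-1 and is one of the monocyte markers above (0.02). Ly86 was at 2128 and 2570.3 in WT against 3147 and 2823 in Zbtb16lu/lu. With 4 libraries, these are the closest of 20531 genes and a description only.

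The other regulators of actin were taken as a list of 95 genes, of which 90 were tested in GMPs and none passed at an adjusted p under 0.08. Of these 90, 46 had a higher mean in Zbtb16lu/lu, and the median log2 difference was 0.02, against -0.01 over all genes tested. At an unadjusted limma p under 0.05, 6 were higher (Vill, Evl, Enah, Coro1a, Ssh3 and Arpc1b) and 2 lower (Gmfb and Actr2), against 5.5% and 4.37% of all genes. Apart from Vill, Evl and Enah, these were named after their values were seen. Libraries did not overlap for 22 higher and 15 lower genes, against 21.7% and 22.1% of all genes. These shares are near those of all genes, and nothing particular to the list is read from them. The median was 0.01 for the 7 gelsolin family members. By group it was 0.10 for actins, 0.09 for the cofilin group, 0.08 for monomer binding, -0.17 for end capping, 0.00 for the Arp2/3 complex and its activators, -0.05 for formins and Spire, and 0.01 for bundling, cross-linking and side binding.

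A log2 difference of at least 0.58 without overlap was found for 4 of the 90, all higher in Zbtb16lu/lu, against 7.01% of all genes higher and 2.95% lower. The list thus held no more such genes than its size would give, and the 4 are described as single genes. Besides Vill they were Actc1 and both Evl and Enah, members of the Ena/VASP group, which bind barbed ends and favour filament elongation. Evl was at 334 and 422 in WT against 746 and 781 in Zbtb16lu/lu, a log2 difference of 1.02 (standard error 0.18, limma adjusted p = 0.299), about as large as that of Gsn. Enah was at 61.7 and 34.7 in WT against 107 and 98.7 in Zbtb16lu/lu, a log2 difference of 1.14 (standard error 0.37, limma adjusted p = 0.428). Their relative Vasp was at 5458 and 3908 in WT against 5145 and 5042 in Zbtb16lu/lu and overlapped. It was named after its values were seen. Actc1, the cardiac actin, was at 54.7 and 46.3 in WT against 61.2 and 97.7 in Zbtb16lu/lu. Evl and Enah are not among the genes listed for 416b cells.

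In 416b cells 77 of the list had a mean of at least 10, with a median log2 ratio of -0.01 against 0.00 over all genes. The interval was above 0 for 18 and below 0 for 21, against 16.1% and 15.9% of all genes. Wasf1, an activator of the Arp2/3 complex, was the 1 gene past 1.5-fold with an interval that left out 0, with 56 and 42 reads and a log2 ratio of 1.01 (0.42 to 1.64). In GMPs it was at most 2.0 normalized counts and was not tested.

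**Figure D5:**
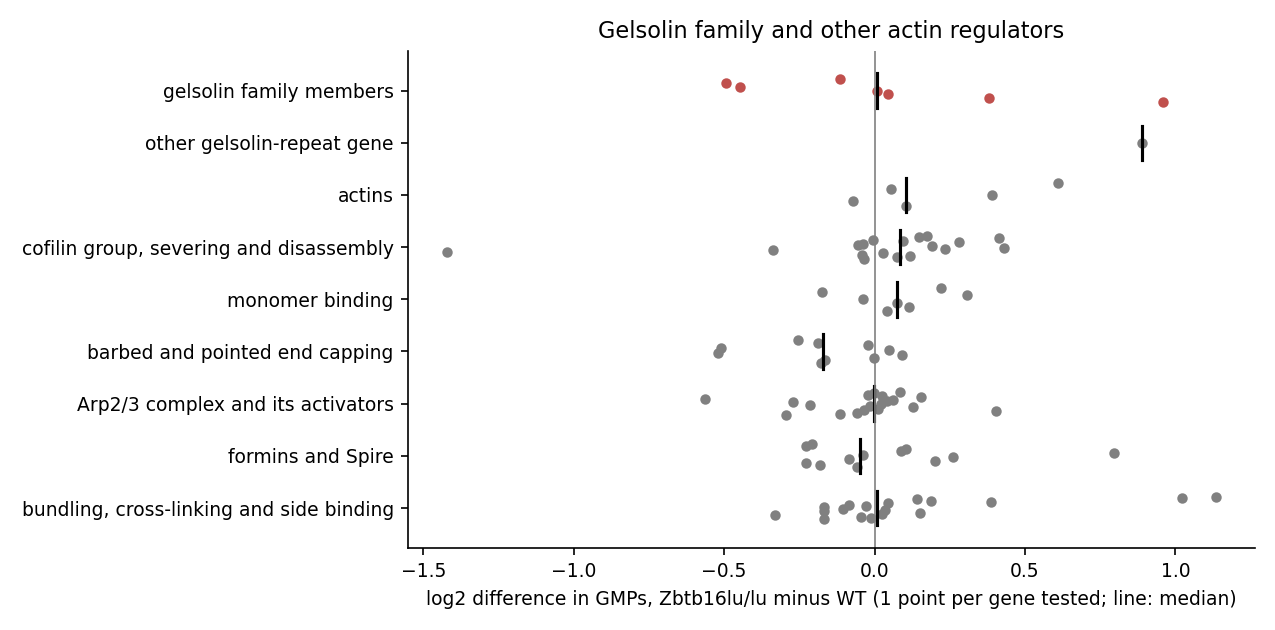
Log2 differences between Zbtb16lu/lu and WT GMPs of the gelsolin family (red) and of the other actin regulators by group (grey), 1 point per gene tested, with the median of each group as a line. The medians lie between -0.17 (end capping) and 0.10 (actins), apart from the single gene Vill at 0.89, and Gsn, Vill, Evl and Enah lie near 1.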

How the data were processed

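RNA-seq tables of GMPs and of 416b cells were used, and chromatin samples were not analysed here. Alignment by the authors was to mm10 (subread-align), with gene counts from featureCounts (1.5.0 in the submitters' processing notes) scaled by the size factors of DESeq2, so the deposited signal values are normalized counts. GMP libraries were made with a stranded ribosomal depletion kit and 416b libraries with a SMART-Seq kit. The label of each GMP RNA-seq sample covers 2 columns, numbered here in column order, whereas the methods give 3 RNA extractions. Columns of the authors' own means, log2 values, fold changes and p-values were not used. For GMPs, all values were whole multiples of the smallest value, but with a step so close to 1 these could not be accepted as reads. limma-trend (3.58.1, R 4.3.3) was therefore run on log2 values with a pseudocount of 1 for genes that reached 10 in 2 or more libraries, with p-values adjusted by the Benjamini-Hochberg method (threshold 0.08), after it was tested on simulated data. Library totals of normalized counts were 38562940 to 40130730. With 2 libraries against 2, an exact permutation test cannot go below a two-sided p of 0.333, and p-values measure only the spread between these libraries, which may be technical. For 416b cells, 84.8% and 85.5% of values were whole reads within 0.02 of a read, and others, Capg with PLZF-Flag and Vill in both libraries among them, were rounded for the intervals. Log2 ratios were taken from the normalized counts with a pseudocount of 1. Exact binomial (Clopper-Pearson) 95% intervals of the ratio cover counting error only. Gene positions and lengths came from GENCODE M21 and promoters from RefSeq. Sequences of Capg, whose window overlaps an exon, and of the other members were not printed, and protein sequences were not analysed here.

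The members and gene lists were chosen with earlier results of these data known. The genes named are the 7 members, Zbtb16, genes of the lists with a GMP log2 difference of at least 0.58 and libraries that did not overlap or with a 416b log2 ratio of at least 0.58 and an interval that left out 0, and the 5 and 3 genes nearest to Gsn and Capg. Outside this rule, Coro1a, Ssh3, Arpc1b, Gmfb, Actr2, Vasp and several markers, the GMP markers among them, were named after their values were seen. Of the marker lists (GMP, mature neutrophil, monocyte and macrophage, dendritic, megakaryocyte and platelet, mast cell and basophil, erythroid, stromal and endothelial, B and T cell) only examples are named. The alternatives tried were equal totals, pseudocounts of 0.1 and 10, a mean of 100 or more, no filter on low values, quantile normalization, no intensity trend, offsets for GC content and length, a threshold of 0.05, each library left out, and the pair of the shared date.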

Additional observations from a re-analysis of the deposited data

How the results depend on the processing

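With all 4 GMP libraries, no member and no other actin regulator was called under any alternative. With 1 library left out, 0 to 3 members and 0 to 19 other actin regulators were called. Without WT library 1, Gsn was called (log2 difference 0.85, limma adjusted p = 2.45e-08), and without WT library 2, Gsn (1.07, 1.21e-12), Capg (0.53, 0.000352) and Scin (-1.09, 2.29e-05) were. Vill was called in both cases (1.00 and 0.77). Over all genes, 4645 and 2760 were then called, and 1 and 48 without Zbtb16lu/lu library 1 or 2. In these fits the lone library is assumed to vary like the pair left, and the median SD of log2 values over genes was 0.107 for the Zbtb16lu/lu pair and 0.201 for the WT pair. Gsn stayed between 0.78 and 1.12 and Capg between 0.23 and 0.53 under the alternatives run. The sign turned for Flii with offsets for GC content and length (-0.0917) and in the pair of the shared date (-0.0653), for Svil with the offsets (-0.0085) and for Avil in the pair of the shared date (0.91). With 1 library left out, differences ranged from -0.0331 (without WT library 2) to 0.125 for Flii, from -0.0836 (without WT library 1) to 0.0975 for Svil, from -1.09 to 0.20 (without WT library 1, and 0.19 without Zbtb16lu/lu library 2) for Scin, from -0.965 (without Zbtb16lu/lu library 2) to -0.0245 (without Zbtb16lu/lu library 1) for Vil1, and from -0.365 to 0.66 (without Zbtb16lu/lu library 1) for Avil. Avil was not tested without WT library 2 or Zbtb16lu/lu library 2. In 416b cells no member was past 1.5-fold with an interval that left out 0 with equal totals or pseudocounts of 0.1 and 10, the alternatives run for the members (the ratio of Scin itself was past 1.5-fold in all of them, with 1 read in the PLZF-Flag library), and the count of other actin regulators went from 1 to 0 with a mean of at least 100, which leaves Wasf1 out. No count for the actin regulators is given for the pair of the shared date, which allows no test. No paired analysis was possible because the labels and column names give no replicate numbers, and the dates in the column names are shared by 1 pair of libraries only. With 2 libraries per genotype and 1 per 416b condition, differences of Scin, Vil1 and Avil are not resolved.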
